A study of Mus musculus with 6 samples.

Results

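The Ighv4 family, also called X24, is a pair of mouse heavy chain V genes, Ighv4-1 and Ighv4-2. Its joins were taken as all sequences whose first named V gene, with the allele left out, was an Ighv4 gene. They numbered 2963 of the 228609 sequences in 6 libraries, or 1.30%. No Ighv4 sequence named a gene of another family, and none of the other sequences named an Ighv4 gene.

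The libraries came from VDJ-seq, a method that reads recombined heavy chain V, D and J segments from genomic DNA, with each original DNA molecule marked by a molecular identifier. The DNA came from B cells enriched from the spleens of C57BL/6 mice aged 12 weeks by depletion of other cells. Of the 6 libraries, 4 differed in their DNA input, of 500 ng, 1 µg, 2.5 µg or 5 µg. The other 2, Q5_Q5 and Q5_vent, differed in the combination of DNA polymerases, and the labels do not say how much DNA they started from. Each group was therefore 1 library, and no label says whether the libraries came from separate animals. The sequenced DNA holds only heavy chain joins, so the enrichment for B cells could not be checked against marker genes.

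Depth ranged from 8704 sequences at 500 ng to 112320 at 5 µg. Finding no sequence leaves room for a share of at most 0.0345% at the lowest depth and 0.00267% at the highest (3 counts of the total). All 95% intervals given here, and these limits, cover counting error only.

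In a developing B cell, a D segment is joined to a J segment and then a V segment to the D, with bases trimmed and added at each junction. A join that is in frame and free of stop codons is called productive and can encode an antibody chain. A join that is out of frame cannot, and its V gene is commonly read as a record of recombination alone. In-frame joins with a stop codon form a class of their own. The X24 family takes its name from a galactan-binding myeloma protein, and Ighv4 genes are known from antibodies to galactan.

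The sequences of the genes are shown because their differences decide which joins can be told apart. Each was read from full-length, mismatch-free sequences in the files, 340 for Ighv4-1 and 75 for Ighv4-2, which gave 1 reading per gene in all 6 libraries. Capitals mark the bases that differ between the genes.
Ighv4-1: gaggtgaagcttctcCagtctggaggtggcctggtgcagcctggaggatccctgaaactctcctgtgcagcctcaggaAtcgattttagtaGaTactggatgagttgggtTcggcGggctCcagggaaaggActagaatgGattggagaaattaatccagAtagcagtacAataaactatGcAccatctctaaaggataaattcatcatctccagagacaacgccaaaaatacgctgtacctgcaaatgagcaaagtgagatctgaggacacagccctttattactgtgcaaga
Ighv4-2: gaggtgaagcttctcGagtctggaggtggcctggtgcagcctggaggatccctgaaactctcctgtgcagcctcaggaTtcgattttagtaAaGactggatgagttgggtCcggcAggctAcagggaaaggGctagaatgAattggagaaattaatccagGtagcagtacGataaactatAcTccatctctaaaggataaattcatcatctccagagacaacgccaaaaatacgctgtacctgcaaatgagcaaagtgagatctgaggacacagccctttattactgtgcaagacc

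Over 294 shared positions, counted from 1 at the first V base, the genes differed at 13 and were 95.6% identical. The last difference was A183T, written with the Ighv4-1 base first, so that the V sequence after base 183 is the same in both genes up to the end of Ighv4-1. RefSeq places Ighv4-1 at chr12:113948284-113948577 (GRCm38.p6) as a V segment, and Ighv4-2 at chr12:114013144-114013439 as a V segment pseudogene. The lengths read from the sequences, 294 and 296 bases, equalled those of the annotation. The genes lie 64566 bases apart, at places 48 and 52 among 195 annotated V segments in rising coordinate order.

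A base difference within this set, G141A, gives Ighv4-2 an in-frame stop codon at bases 139 to 141. The windows from base 129 to base 158 show this codon in capitals.
Ighv4-1: aggactagaaTGGattggagaaattaatcc
Ighv4-2: agggctagaaTGAattggagaaattaatcc

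Which gene a sequence was assigned to depended on how much of V had been read. Ighv4-1 alone was named in 1402 sequences (47.3% of the family), Ighv4-2 alone in 780 (26.3%), and both genes in 781 (26.4%). The alignments that named both genes covered a median of 81 V bases and at most 119, against medians of 216 for Ighv4-1 alone and 209 for Ighv4-2 alone. Counting by the first name puts all 781 of them under Ighv4-1, which then holds 2183 sequences. Of the family's sequences, 1561 covered the stop codon position, 569 began after base 139 but reached the last difference, and 833 reached no difference at all. A set of 60 sequences named Ighv4-2 alone, by its second allele, although their alignments reached none of these differences.

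**Figure D1:**
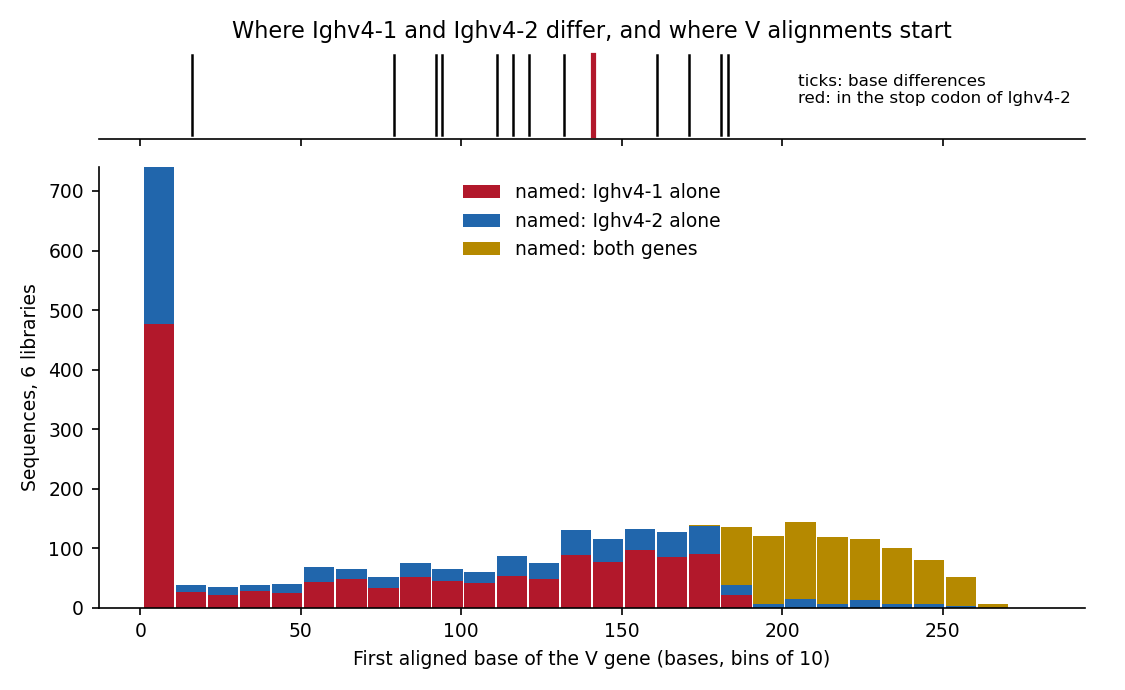
The upper strip marks the 13 positions at which Ighv4-1 and Ighv4-2 differ, in bases from the start of V, and the bars below count the family's sequences in the 6 libraries by the first V base of their alignment in bins of 10 bases. Sequences naming both genes lie almost all to the right of the last difference at base 183.

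The family's share of all sequences was similar in every library. It was 1.31% with 500 ng of DNA, 1.25% with 1 µg, 1.37% with 2.5 µg and 1.26% with 5 µg, and 1.40% in Q5_Q5 and 1.24% in Q5_vent, with a mean of 1.31% ± 0.0669 (SD, n = 6). The 6 Wilson 95% intervals overlap one another, from 1.09% to 1.57% at 500 ng down to 1.2% to 1.33% at 5 µg. In the same libraries the Ighv6 family, also called J606, averaged 2.87% ± 0.110 and the Ighv7 family, also called S107, 1.57% ± 0.0926 (SD, n = 6). These were chosen as like small families and serve as a scale.

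Along the locus the Ighv4 genes sit beside genes of the Ighv14 and Ighv3 families, and out-of-frame shares differed among these neighbours. Ighv4-1, by the first name, made up 1.66% of all out-of-frame joins, against 0.236% for Ighv14-1 and 1.24% for Ighv3-1 on either side of it. Within that 1.66%, joins naming Ighv4-1 alone were 0.919% of all out-of-frame joins and those naming both genes 0.743%. The shares of the neighbours are also by the first name. Of the 633 out-of-frame Ighv3-1 joins, 342 named that gene alone. Ighv4-2 made up 1.03%, against 0.342% for Ighv14-2 and 0.935% for Ighv3-2, the last also annotated as a pseudogene.

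The family was a larger part of the joins that cannot encode a chain than of the productive ones. It made up 0.749% ± 0.0670 of productive joins, against 2.76% ± 0.385 of out-of-frame joins (SD, n = 6). Its share of in-frame non-productive joins was 3.13% ± 0.420. Among productive joins the share was 0.632% with 500 ng, 0.763% with 1 µg, 0.789% with 2.5 µg and 0.713% with 5 µg, and 0.819% in Q5_Q5 and 0.777% in Q5_vent. Among out-of-frame joins it was 3.25%, 2.41%, 2.89% and 2.60% over the same 4 amounts, and 3.12% in Q5_Q5 and 2.31% in Q5_vent. The lowest out-of-frame share was above the highest productive share.

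The ratio of the family's productive to its out-of-frame share was taken within each library, on a log2 scale. It averaged -1.87 ± 0.27 (0.273-fold) for Ighv4, with all 6 libraries below 0. For Ighv6 the ratio averaged 0.36 ± 0.11 and for Ighv7 -0.65 ± 0.27. The Ighv4 counts include 540 Ighv4-2 sequences that cover the stop codon of that gene and could not be productive. By the two-sided exact sign-flip permutation test over the 6 libraries, p was 0.03125 for each of these families, and 0.03125 after Benjamini-Hochberg adjustment over 15 V families. That p-value is the smallest this test can give with 6 libraries. It says only that all 6 libraries lay on the same side of 0, and the spread between them may be technical.

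Seen from the family's side, 42% ± 3.69 of Ighv4 joins were productive, against 73.6% ± 0.496 of joins of all other V genes (SD, n = 6). Out-of-frame joins made up 47.1% ± 5.03 of the family and 22.0% ± 0.308 of the others. In-frame non-productive joins made up 10.9% ± 2.01 of the family and 4.41% ± 0.198 of the others. The productive part was 77.9% ± 0.826 in Ighv6 and 63.2% ± 4.61 in Ighv7. At 500 ng the family held the fewest sequences, 114, and had its lowest productive part, 35.1%, while the other libraries lay between 41.4% and 45.5%.

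Ighv4-2 carried the stop codon in its own V sequence, so a sequence that covers this position is non-productive by definition when it is in frame. Among the 540 Ighv4-2 sequences that covered it, 383 were out of frame, 157 were in frame with a stop codon, and 0 were productive. This was so in each library, where the sequences covering the position numbered 15 with 500 ng, 34 with 1 µg, 137 with 2.5 µg and 272 with 5 µg, and 33 in Q5_Q5 and 49 in Q5_vent. A count of 0 among the 157 in-frame sequences allows up to 1.91%. With a floor of 3 counts, the Ighv4-2 share of productive joins lay at least 431-fold below its 1.43% share of out-of-frame joins. The floor was taken over all libraries, and both shares over all V genes with a single name and the same reach. No productive call was possible for Ighv4-2 in this set, so the limit is set by depth and measures no depletion.

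None of the 75 Ighv4-2 sequences called productive in the files covered the whole stop codon: their alignments began after its first base, 139. They were 48 of the 180 that began there but reached the last difference, and 27 of the 60 that reached no difference.

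A sequence is called in or out of frame apart from its stop codons. The part of joins in frame also differed between the genes, and whether this is tied to the stop codon was not tested. Among sequences covering the position, 29.1% of Ighv4-2 joins were in frame (95% interval 25.4 to 33.0%), against 66.5% of Ighv4-1 joins (63.6 to 69.3%) and 78.3% of joins of other V genes. By library, the Ighv4-2 part in frame was 13.3% with 500 ng, 29.4% with 1 µg, 25.5% with 2.5 µg and 32.7% with 5 µg, and 21.2% in Q5_Q5 and 28.6% in Q5_vent. The Ighv4-1 part was 51.0%, 79.4%, 68.4% and 65.3% over the same 4 amounts, and 59.1% in Q5_Q5 and 72.4% in Q5_vent. The ranges of the genes over libraries did not overlap, and no test was run on this difference.

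Across all 104 V genes with at least 60 out-of-frame sequences, counted by sequences with a single V name, the in-frame part placed Ighv4-2 at rank 19 from the lowest and Ighv4-1 at rank 45. The 9 genes among them annotated as pseudogenes had a median of 33.1% in frame, which is the value of Ighv4-2 itself, and ranged from 29.3% to 81.8%. The 93 annotated as V segments had a median of 80.3%, above the 66.6% of Ighv4-1, and ranged from 13.9% to 93.7%. The lowest pseudogene stood at rank 12 from the lowest, and every gene below it was annotated as a V segment.

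Among Ighv4-1 sequences covering the stop codon position, 602 of 1021 were productive, or 59.0%. By library the productive part was 40.8% with 500 ng, 71.4% with 1 µg, 61.7% with 2.5 µg and 57.6% with 5 µg, and 54.5% in Q5_Q5 and 63.2% in Q5_vent. Every value was below that of the other V genes with the same reach, which lay between 72.7% and 74.6%. The widest values came from the smallest sets, with 49 Ighv4-1 sequences at 500 ng and 63 at 1 µg. The 781 sequences that named both genes lay between the single genes, with 43.0% productive and 51.6% in frame.

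**Figure D2:**
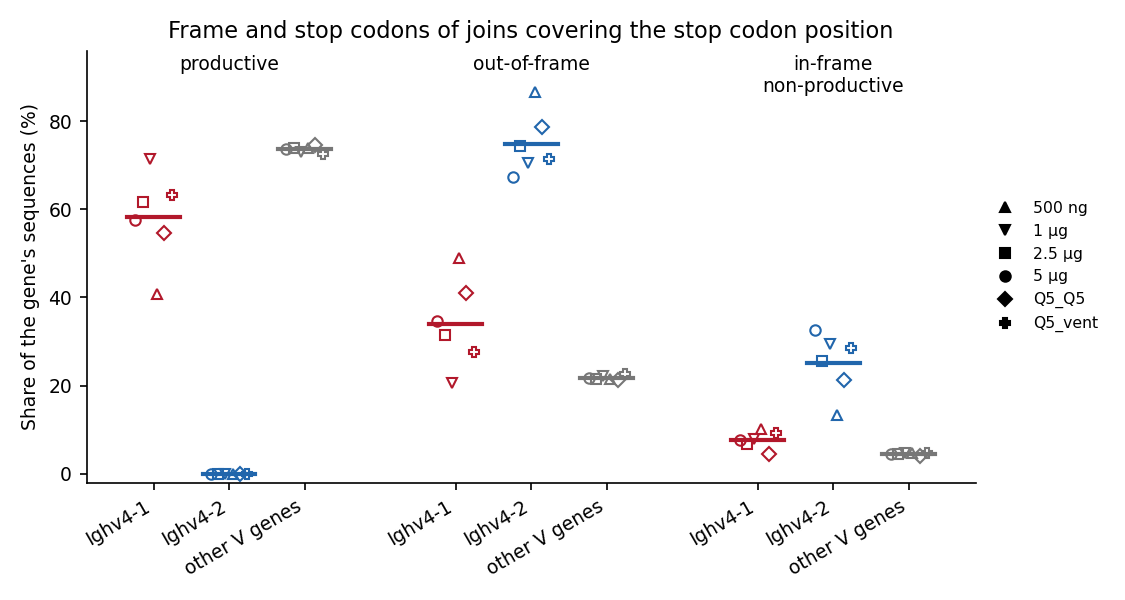
Share of each gene's sequences, in percent, that were productive, out of frame or in frame with a stop codon, over sequences covering the stop codon position, with a point per library and a line at the mean. Ighv4-2 is at 0 productive in all 6 libraries, and the Ighv4-1 productive part lies between 40.8% and 71.4%.

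Per gene, the productive to out-of-frame ratio was computed for all 109 V genes with at least 60 out-of-frame sequences, by the first V name. Ighv4-1 had log2 values of -1.94 with 500 ng, -1.16 with 1 µg, -1.24 with 2.5 µg and -1.24 with 5 µg, and -1.37 in Q5_Q5 and -0.93 in Q5_vent. Their mean was -1.31 ± 0.34 (0.402-fold), lower in 6 of 6 libraries (exact sign-flip p = 0.03125, adjusted p = 0.0334). Ighv4-2 averaged -4.23 ± 0.49 (0.0532-fold), also lower in 6 of 6, with the same p and adjusted p.

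In this comparison 93.6% of the 109 genes passed an adjusted p of 0.05, with 46.8% lower and 46.8% higher, so passing it sets neither Ighv4 gene apart. In the order of the ratios, Ighv4-2 ranked 13 from the lowest, between Ighv1-70 at -4.39 and Ighv3-3 at -4.12, with Ighv1-25 and Ighv8-9 at -4.49 and -4.43 below and Ighv1-79 and Ighv8-7 both at -3.95 above. Ighv4-1 ranked 43, between Ighv5-15 at -1.33 and Ighv2-4 at -1.30, with Ighv5-12 and Ighv2-2 at -1.41 and -1.39 below and Ighv2-3 and Ighv3-8 at -1.23 and -0.93 above. The steps from Ighv4-1 and Ighv4-2 to their next genes were smaller than the SD of the Ighv4 values.

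Both results depended on which sequences were counted. The Ighv4-2 mean above rests on the 75 sequences that do not cover the whole stop codon. With single-gene calls that reach the last difference it was -4.87 ± 0.47 (adjusted p = 0.0352 by the exact sign-flip permutation test), and with those that cover the stop codon position it was -8.16 ± 1.42 (adjusted p = 0.0371 by the same test). The last value depends on the 0.5 added to counts of 0. Its direction was fixed in advance, because no productive call was possible there, so its test decides nothing. The limit of 431-fold given above is likewise set by depth. The mean of -4.87 and the main Ighv4-2 mean also count the 540 sequences that cover the stop codon and could not be productive. Their tests were therefore partly fixed in advance. Among the 180 Ighv4-2 sequences that reached the last difference without covering the whole stop codon, 48 were productive and 113 out of frame.

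For Ighv4-1, the mean with single-gene calls was -0.86 (adjusted p = 0.0346 by the exact sign-flip permutation test). With single-gene calls that also cover the stop codon position, the mean was -0.95 ± 0.71, lower in 5 of 6 libraries, and the adjusted p of the same test was 0.0699. The settings by reach were chosen after seeing the data. The exception was the 1 µg library, with 45 productive against 13 out-of-frame Ighv4-1 sequences.

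**Figure D3:**
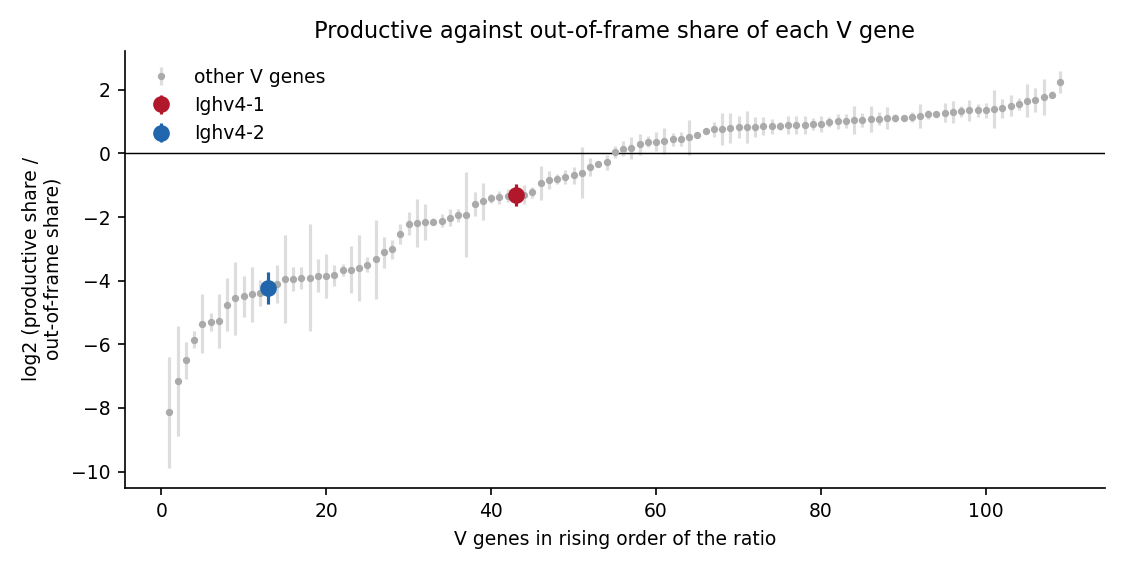
Mean log2 ratio of each V gene's share of productive joins to its share of out-of-frame joins for 109 V genes in rising order, with bars for the SD over 6 libraries. Sequences are counted by the first V name whatever part of V they cover. Ighv4-2 lies at -4.23, at rank 13, and Ighv4-1 at -1.31, at rank 43.

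The ratio of in-frame non-productive to out-of-frame share was also taken. For Ighv4-2 it averaged 0.60 ± 0.50 on the log2 scale (1.52-fold), higher in 5 of 6 libraries (exact sign-flip p = 0.0625, adjusted p = 0.200), at rank 98 of 109. For Ighv4-1 it averaged -0.09 ± 0.37, with 3 libraries on either side (exact sign-flip p = 0.6875, adjusted p = 0.842), at rank 41. Of the 183 in-frame non-productive Ighv4-2 joins, 157 covered the stop codon in its V sequence. Such joins fall in this class by definition whenever they are in frame. The Ighv4-2 test and rank are therefore not comparable with those of genes without such a codon. None of the 109 genes (0%) passed an adjusted p of 0.05 here, and 22 had an unadjusted p below it. With 6 libraries, passing needs the smallest possible p in most of the genes.

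Among out-of-frame joins that cover the stop codon position, Ighv4-2 and Ighv4-1 were about as frequent. Such Ighv4-2 joins numbered 13, 24, 102 and 183 over the 4 amounts from the lowest to the highest, 26 in Q5_Q5 and 35 in Q5_vent. Such Ighv4-1 joins numbered 24, 13, 84 and 170 over the same amounts, 27 in Q5_Q5 and 24 in Q5_vent. The log2 ratio of Ighv4-2 to Ighv4-1 averaged 0.15 ± 0.60, above 0 in 4 of 6 libraries (exact sign-flip p = 0.594). Over all libraries Ighv4-2 supplied 52.8% of the 2 genes' out-of-frame joins (95% interval 49.2 to 56.4%).

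Productive Ighv4 joins held more Ighj1, the J gene nearest the D segments, and less Ighj2 than those of other V genes in every library. Neither difference passed the correction for multiple tests. With 6 libraries, passing it needs the smallest possible p in most of the relations computed. Ighj1 was in 25% of them with 500 ng, 28.4% with 1 µg, 29.0% with 2.5 µg and 27.9% with 5 µg, and in 36.3% in Q5_Q5 and 30% in Q5_vent, against 18.4% to 20.1% of the other V genes' joins. The mean difference was 10.2 ± 4.04 percentage points (SD, n = 6).

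Ighj2 was in 7.5%, 12.6%, 14.8% and 15.3% of productive Ighv4 joins over the same 4 amounts, and in 14.3% in Q5_Q5 and 13.6% in Q5_vent, against 27.8% to 31.6% of the others'. The mean difference was -16.6 ± 3.59 points. For both J genes the family and the others did not overlap. These rest on 40, 95, 324 and 587 productive Ighv4 joins from the lowest to the highest amount, 91 in Q5_Q5 and 110 in Q5_vent. The exact sign-flip permutation p was 0.03125 for each, and 0.203 after adjustment over the 26 relations computed in this family of tests.

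Ighj3 was in 22.3% ± 4.48 of productive Ighv4 joins and 22.5% ± 0.949 of the others' (mean difference -0.176 points, higher in 2 of 6 libraries). Ighj4, the J gene nearest the constant regions, was in 35.2% ± 6.07 against 28.7% ± 0.501, a difference of 6.54 ± 5.87 points that was positive in 5 of 6 libraries and negative in Q5_Q5 (exact sign-flip p = 0.0938, adjusted p = 0.406).

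Among out-of-frame joins the J shares of Ighv4 and of the others overlapped. Ighj1 was in 15.9% ± 1.64 of them and 16.1% ± 0.342 of the others', and Ighj2 in 30% ± 4.80 and 32.5% ± 1.78 (SD, n = 6). Both differences had 3 libraries on either side. The productive difference minus the out-of-frame difference was 10.5 ± 4.45 points for Ighj1, positive in 6 of 6 libraries, and -14.0 ± 4.59 points for Ighj2, negative in 6 of 6. For each the exact sign-flip p was 0.03125 and the adjusted p over 9 such relations 0.141. Against Ighv6 and Ighv7 together, Ighj2 was lower in Ighv4 in 6 of 6 libraries among out-of-frame joins too. Its mean difference was -7.60 ± 7.60 points there and -13.7 ± 3.67 among productive joins. For each of these the exact sign-flip p was 0.03125 and the adjusted p 0.0739.

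**Figure D4:**
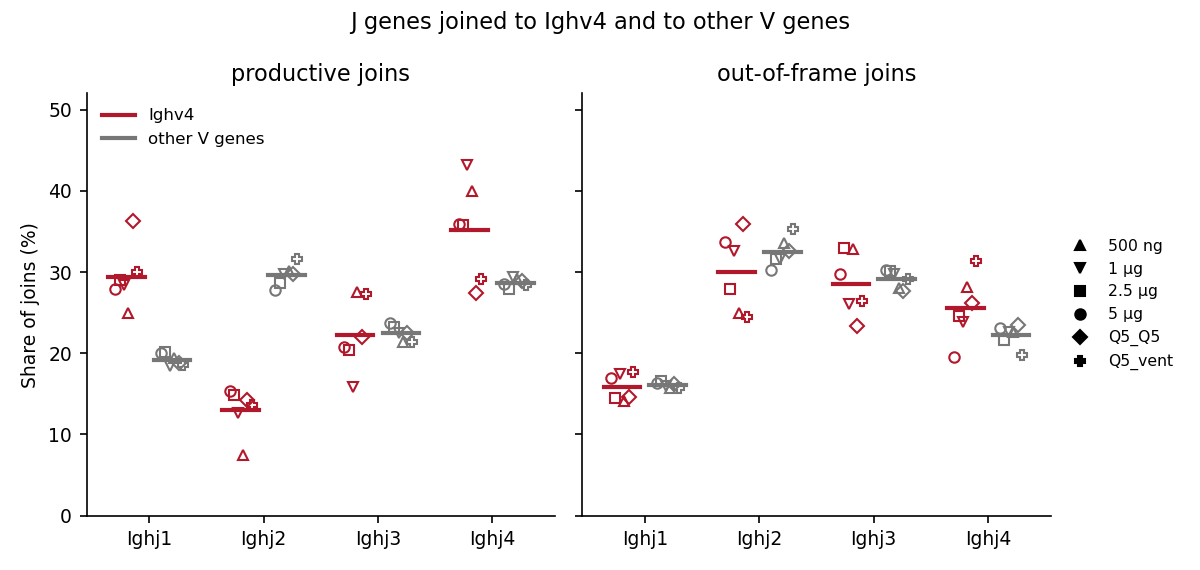
Share of joins, in percent, that used each of the 4 J genes, for productive joins on the left and out-of-frame joins on the right, with a point per library and a line at the mean, for Ighv4 in red and all other V genes in grey. The points of Ighv4 lie above those of the others for Ighj1 and below them for Ighj2 among productive joins, with no such gap among out-of-frame joins.

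The same difference was then taken for each of 96 V genes with at least 100 productive sequences. Ighv4-1 stood 10th from the highest for Ighj1, at 11.1 ± 3.78 points, 12th from the lowest for Ighj2, at -17.2 ± 4.08, and 17th from the highest for Ighj4, at 7.95 ± 6.64. Each of these had all 6 libraries on 1 side. So did 33.3% of the 96 genes for Ighj1, 38.5% for Ighj2 and 32.3% for Ighj4. An adjusted p of 0.05 was passed by 0% of them for any J gene. Passing needs the smallest possible p in most of the 96 genes, so this 0% says nothing about the size of the differences. Over these genes the differences ran, between their quartiles, from -2.44 to 4.78 points for Ighj1 and from -6.85 to 2.49 for Ighj2.

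Split by gene over sequences that reach a difference, productive Ighv4-1 joins had the highest Ighj1 and the lowest Ighj2 share of the 2 genes' classes. Of its 836 productive joins 29.7% used Ighj1 and 13.4% Ighj2, against 15.8% and 29.7% of its 468 out-of-frame joins. Its 98 in-frame non-productive joins had 24.5% Ighj1 (95% interval 17.0 to 33.9%) and 28.6% Ighj2. Ighv4-2, whose V sequence holds the stop codon, had 15.5% Ighj1 and 32.9% Ighj2 among 496 out-of-frame joins. Its 176 in-frame non-productive joins had 12.5% and 34.7%. The 48 Ighv4-2 joins called productive, none of which covered the whole stop codon, had 16.7% Ighj1 and 33.3% Ighj2.

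For most D families the differences were within the spread between libraries. Among productive joins the DFL16 family (Ighd1 genes) supplied 40.8% ± 3.32 for Ighv4 and 40.1% ± 0.331 for the others, and the DSP2 family (Ighd2 genes) 40.1% ± 3.10 and 39.5% ± 0.453 (SD, n = 6). DQ52, the D gene nearest the J genes, supplied 10.3% ± 4.05 and 6.97% ± 0.196, higher in 5 of 6 libraries (exact sign-flip p = 0.125, adjusted p = 0.406). No D gene was named in 5.30% ± 2.00 and 6.11% ± 0.229.

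The DST4 family (Ighd3 genes) supplied 2.5% of productive Ighv4 joins with 500 ng, 1.05% with 1 µg, 2.16% with 2.5 µg and 6.47% with 5 µg, and 2.20% in Q5_Q5 and 2.73% in Q5_vent. The other V genes lay between 6.21% and 6.85%. The mean difference was -3.60 ± 1.90 points, lower in 6 of 6 libraries (exact sign-flip p = 0.03125, adjusted p = 0.203). At 5 µg, which holds 587 of the 1247 productive Ighv4 joins, the family and the others were nearly equal, at 6.47% and 6.54%, and over all libraries pooled the difference was -2.31 points (95% interval -3.43 to -1.2). With single-gene V calls the mean difference was -3.74 ± 2.39 points and not all libraries lay on 1 side.

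Among out-of-frame joins DFL16 supplied 41.1% ± 7.59 for Ighv4 and 38.2% ± 0.487 for the others, DSP2 45.2% ± 4.73 and 48.0% ± 0.501, DST4 4.78% ± 2.25 and 4.32% ± 0.375, and DQ52 3.60% ± 1.28 and 4.15% ± 0.206. No D family had all libraries on 1 side there. The single D gene used most was Ighd1-1, in 37.6% of productive Ighv4 joins and 38.5% of the others'. Ighd2-4 followed with 10.6% and 11.8%, and Ighd2-3 with 9.46% and 8.61%. Among out-of-frame joins Ighd1-1 was in 40.4% and 37.1%.

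The CDR3, the loop that spans the junction and contacts antigen, was about as long in Ighv4 joins as in the others. Productive CDR3s averaged 39.9 bases with 500 ng, 39.7 with 1 µg, 38.7 with 2.5 µg and 37.3 with 5 µg, and 38.5 in Q5_Q5 and 38.0 in Q5_vent, against 37.8 to 38.0 for the others. The mean difference was 0.771 ± 1.01 bases, positive in 5 of 6 libraries and negative at 5 µg (exact sign-flip p = 0.125, adjusted p = 0.406). Over pooled sequences it was 0.172 bases (95% interval -0.193 to 0.537), and both medians were 36 bases. A length of 33 bases was the most frequent in Ighv4, with 269 of 1247 productive joins or 21.6%, against 15.9% of the others.

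Out-of-frame CDR3s averaged 38.4 ± 0.721 bases in Ighv4 and 38.5 ± 0.195 in the others (mean difference -0.108, exact sign-flip p = 0.75). Against Ighv6 and Ighv7 together, the 6 productive Ighv4 means were all longer, by 3.82 ± 0.888 bases on average (exact sign-flip p = 0.03125, adjusted p = 0.0739). The 6 out-of-frame means were all longer too, by 1.47 ± 0.753 bases, with the same p and adjusted p.

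**Figure D5:**
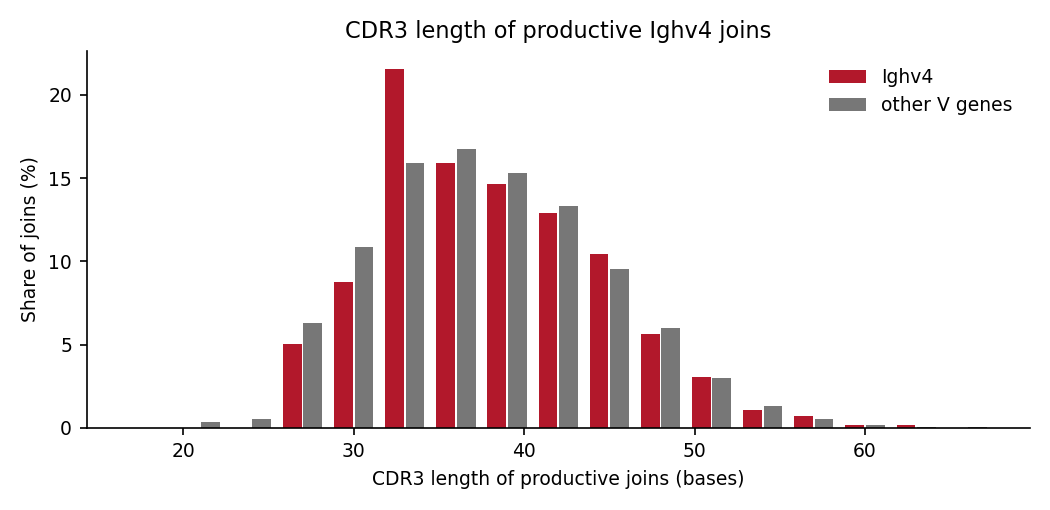
Distribution of productive CDR3 length in bases, as the percent of 1247 Ighv4 joins in red and of 166208 joins of other V genes in grey, pooled over 6 libraries. The tallest Ighv4 bar is at 33 bases, with 21.6% against 15.9%.

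The bases between the segments, which are mostly added by the enzyme TdT, differed from those of other V genes by less than the spread between libraries. Between V and D, productive Ighv4 joins held 4.20 ± 0.430 bases and those of other V genes 4.29 ± 0.0201, and out-of-frame joins 4.25 ± 0.322 and 4.40 ± 0.0561 (SD, n = 6). Between D and J the means were 3.23 ± 0.383 and 3.18 ± 0.0135 in productive joins, and 3.55 ± 0.403 and 3.52 ± 0.0577 in out-of-frame joins. All 4 differences had libraries on both sides, with adjusted p from 0.591 to 0.878 by the exact sign-flip permutation test. Over pooled sequences, in which the 5 µg library weighs most, the productive difference between V and D was -0.207 bases (95% interval -0.363 to -0.0505). Joins with a D gene and no added base on either side were 14 of 1175 productive Ighv4 joins, or 1.19% (95% interval 0.711 to 1.99%), against 1.45% of the others. Against Ighv6 and Ighv7 together, Ighv4 had more bases between V and D in 6 of 6 libraries. The mean difference was 1.12 ± 0.470 in productive and 0.767 ± 0.294 in out-of-frame joins (exact sign-flip p = 0.03125, adjusted p = 0.0739 for each). Between D and J the differences had libraries on both sides.

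The V part often ran to the end of the gene. Among out-of-frame joins that reach a difference, 361 of 468 Ighv4-1 sequences, or 77.1%, kept the last base of the gene. Of 496 Ighv4-2 sequences 82.1% kept the base at the same position, 294, and 33.7% kept both further bases that only Ighv4-2 has.

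At least 1 mismatch to the named V gene was found in 8.21% ± 1.85 of Ighv4 sequences and 7.73% ± 1.66 of the others, higher in 5 of 6 libraries by 0.478 points on average (exact sign-flip p = 0.0625, adjusted p = 0.325). In Q5_Q5 both were lower than in any other library, at 4.74% and 4.49%. Sequences with 5 or more mismatches numbered 8 of 2963 in Ighv4, or 0.270% (95% interval 0.137 to 0.532%), against 1.2% of the others pooled. The mean difference was -0.986 ± 0.275 points, lower in 6 of 6 libraries (exact sign-flip p = 0.03125, adjusted p = 0.203). Ighv6 and Ighv7 together had a similarly low share, 0.298% against 0.228% for Ighv4. The mean difference from them was -0.0693 points (exact sign-flip p = 0.4375, adjusted p = 0.517). By name, 11.8% of sequences given to Ighv4-2 alone and 6.70% of those given to Ighv4-1 alone had a mismatch.

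Counting each J gene with its CDR3 sequence as 1 clone, the family held 2897 clones, of which 98.3% were seen once. In 2 or more libraries were 24, or 0.828% (95% interval 0.557 to 1.23%), against 1.29% of 217635 clones of other V genes. The 4 found in 3 or more libraries are shown as they recur. Their CDR3s run from the V end to the J, and capitals mark the bases between the segments.
Recurring clone 1: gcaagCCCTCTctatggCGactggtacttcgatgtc
Recurring clone 2: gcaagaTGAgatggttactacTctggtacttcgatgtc
Recurring clone 3: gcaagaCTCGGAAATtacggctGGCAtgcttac
Recurring clone 4: gcaagacGatgatggttactaAactac

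Recurring clone 1 was productive, joined Ighd1-1 to Ighj1, and had 8 sequences in 5 libraries, all but the 5 µg one. Clone 2 was out of frame, used Ighd2-3 and Ighj1, and had 7 sequences in 3 libraries, 4 of them named Ighv4-2 alone and 3 both genes. Clone 3 was productive with Ighd1-2 and Ighj3, in 4 libraries with 1 sequence each, and carried 1 to 6 V mismatches. Of its sequences 3 were named Ighv4-1 and 1 Ighv4-2. Clone 4 was in frame but non-productive, with Ighd2-3 and Ighj2, in 3 libraries. Of its sequences 1 was named Ighv4-1 alone and 2 both genes. Its marked V part runs past the last base of Ighv4-1, into a base read here only in Ighv4-2. For Ighv4-1 that base would lie between the segments. No sequence name was shared between libraries. In all, 14 clones appeared under more than 1 naming, 8 of them under Ighv4-1 alone and both genes.

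The design compared DNA amounts and polymerase combinations, and with 1 library per group no p-value could be given. For the family, 1.26% of sequences at 5 µg stood against 1.31% at 500 ng, a ratio of 0.964 (Katz 95% interval 0.797 to 1.17). The ratio was 1.13 (0.820 to 1.55) among productive joins and 0.799 (0.621 to 1.03) among out-of-frame joins. For out-of-frame Ighv4-1 joins it was 0.732 (0.536 to 0.999), from 1.60% at 5 µg against 2.18% at 500 ng. The interval excluded 1 for 4.88% of 82 V genes among out-of-frame joins, for 1.14% of 88 among productive joins and for 3.74% of 107 over all joins, and 0.935% of the 107 also differed at least 1.5-fold.

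Between polymerase combinations, Ighv4 made up 1.40% of Q5_Q5 sequences and 1.24% of Q5_vent sequences, and their ratio was 1.13 (0.941 to 1.36). Among out-of-frame joins it made up 3.12% and 2.31%, a ratio of 1.35 (1.03 to 1.77). Out-of-frame Ighv4-1 joins made up 2.00% in Q5_Q5 and 1.31% in Q5_vent, with a ratio of 1.52 (1.07 to 2.16), while the Ighv4-2 ratio was 1.13 (0.729 to 1.74). Of 21 V genes measured among out-of-frame joins, 14.3% had an interval that excluded 1, Ighv4-1 among them. Over all joins the Ighv4-1 ratio was 1.21 (0.972 to 1.49), and the interval excluded 1 for 3.57% of 84 V genes and, among productive joins, for 1.59% of 63.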

How the data were processed

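Each deposited file holds 1 library of deduplicated VDJ-seq sequences, a row each, with V, D and J calls, frame and productive flags and CDR3, per the file headers. Per the submitters' processing notes, the mm10 build, Bowtie2 2.3.2 and Trim Galore 0.4.4 were used. For the V, D and J caller no version is given in the sources used here. V and J identity are deposited as a fraction and alignment quality as a score, and neither entered a result. Lengths in bases come from further deposited columns. Row numbers have gaps: 56.7% to 64.1% of the highest number are present. A trailing number in sequence names, 3 or more, was taken as reads.

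Joins were counted by first V name with alleles merged. Ratios of shares within a library, with 0.5 added to counts, were averaged over 6 libraries, each its own group, and tested by a two-sided exact sign-flip permutation test with Benjamini-Hochberg adjustment. Smallest p-values are 0.03125 with 6 libraries and 0.0625 with 5. The ratios were checked on simulated counts, and the test on short sets of values with known answers. Genes named beside the family were its neighbours on the locus, the 3 genes either side in the ratio order, Ighv6 and Ighv7, all J genes, the D families, the 3 most used D genes and clones in 3 or more libraries. The members and lists were chosen with earlier results of these data known. Alternatives were single-gene calls, no unclear primer tags, 1 count per clone, pooled libraries, at least 5 reads, another pseudocount (0.1), no recurring clones, other comparison genes and leaving out libraries. Work used Python 3.11.15, pandas 2.3.3, NumPy 2.4.6 and matplotlib 3.10.9. Coordinates are RefSeq's, GRCm38.p6.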

Additional observations from a re-analysis of the deposited data

How the results depend on the processing

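No paired analysis was possible because each input or polymerase group holds 1 library. The tests over 6 libraries compare values within each library. Over the alternatives other than leaving out a library, 263 of 286 values were counted as unchanged. For tested settings this meant the same direction and side of the threshold. Elsewhere it meant a value close to the main one, mostly within its SD or 95% interval, which could include a change of sign. Pooled over libraries, for example, the productive DFL16 difference was -0.287 points, against a mean of 0.749. With single-gene V calls the family share was 1.09%, the Ighv4-1 in-frame non-productive log2 ratio 0.0189, the added bases of productive joins 0.0125 (V to D) and -0.12 (D to J) different from other genes, and the out-of-frame DST4 and no-D differences -0.0769 and 0.108 points. Restricted to calls covering the stop codon position, the Ighv4-1 ratios were -0.95 (productive, adjusted p = 0.0699 by the exact sign-flip permutation test) and 0.16 (in-frame non-productive) and the Ighv4-2 productive ratio -8.16, and to calls reaching the last difference the Ighv4-2 ratio was -4.87 and the out-of-frame Ighj3 difference was 0.514. Without unclear primer tags the out-of-frame D to J and Ighj3 differences were -0.000621 bases and 0.376 points. With at least 5 reads the out-of-frame D to J and Ighj1 differences were -0.0424 bases and 0.0512 points. Against Ighv6 and Ighv7, added bases between V and D differed by 1.12 (productive) and 0.767 (out of frame), out-of-frame CDR3s by 1.47 bases, Ighj1, Ighj3 and DSP2 out of frame by 2.3, 1.3 and 1.63 points, and mismatches by -0.580 points. Apart from the comparisons with Ighv6 and Ighv7, the values that changed sign lay within 1 SD of 0. The cause was not tested.

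D relations with all libraries on 1 side numbered 1 of 10, against 0 with single-gene calls, 4 against Ighv6 and Ighv7 and 4 in the 4 input libraries alone, and 1 to 2 leaving out 1 library, with 2 without Q5_vent.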
